A study of Rattus norvegicus with 48 samples.

Results

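The expression of 5 genes of extracellular matrix remodelling was described across 48 RNA sequencing libraries of rat liver slices. The genes were Timp1 (ENSRNOG00000010208), Mmp2 (ENSRNOG00000016695), Mmp9 (ENSRNOG00000017539), Lox (ENSRNOG00000014426) and Fn1 (ENSRNOG00000014288). They were taken from a list of Ensembl IDs with no threshold on their values, though the list was drawn up with earlier results of these data known. All 5 were among the 32883 genes of the count table and among the 14775 genes that passed a filter on low counts. The slices were precision-cut liver slices, living sections of liver kept in culture, and they came from rats with a ligated bile duct (BDL) or from sham-operated rats. Ligated slices received SB525334 (BDL_SB525334, n = 9), Nint (BDL_Nint, n = 10), Sora (BDL_Sora, n = 10) or vehicle (BDL_veh, n = 10), and sham slices received vehicle (Sham_veh, n = 9). SB525334 inhibits ALK5, the type I receptor kinase of TGF-beta, and the short forms Nint and Sora were read as the multikinase inhibitors nintedanib and sorafenib. The deposited sample sheet gives another compound code for the 9 SB525334 libraries, so their identity rests on the labels. The labels give no strain, age, dose, exposure time or animal number. The p-values therefore reflect library-to-library spread alone, part of which may be technical. Libraries may share a rat, within or between groups, so n counts libraries and not animals.

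Fibrosis is the build-up of extracellular matrix, and its extent depends on how much matrix is laid down, how firmly it is crosslinked and how fast it is degraded. In liver much of the matrix is made by myofibroblasts, which arise from stellate cells and portal fibroblasts, and TGF-beta is among their strongest known stimuli. Timp1 encodes a secreted inhibitor of matrix metalloproteinases. Mmp2 and Mmp9 encode the gelatinases, secreted proteases that cut denatured collagen and basement membrane collagen. Mmp2 is known mainly from fibroblast-like cells, and Mmp9 mainly from leukocytes and macrophages. Lox encodes lysyl oxidase, which starts the crosslinking of collagen and elastin, and Fn1 encodes fibronectin, a scaffold glycoprotein to which cells and collagen fibres attach. Hepatocytes also secrete fibronectin, into plasma.

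The promoter of Timp1 is shown because it was the only promoter of the 5 genes in the RefSeq table used here. Timp1, like the others of the 5, changed between every ligated group and sham and between every compound and vehicle. The 250 bases before the annotated start lie at chrX:3771123-3771372 on the minus strand of GRCr8, and capitals mark a heptamer resembling the site of AP-1 (Fos and Jun dimers) and a pair of Ets-like hexamers.
Timp1: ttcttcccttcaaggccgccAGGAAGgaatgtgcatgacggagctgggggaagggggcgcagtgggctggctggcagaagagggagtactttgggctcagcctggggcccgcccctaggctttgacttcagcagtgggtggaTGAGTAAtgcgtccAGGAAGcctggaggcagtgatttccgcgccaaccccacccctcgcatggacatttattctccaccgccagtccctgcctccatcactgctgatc
The heptamer TGAGTAA began 108 bases before the start, and AGGAAG began 94 and 230 bases before it. Among 33465 rat promoters searched over the same 250 bases and on both strands, 2.38% held TGAGTAA and 29.5% held AGGAAG. The AP-1 consensus TGANTCA (6.34% of promoters) and the Smad-binding element CAGAC (42.9%) were searched too and have no match in this window. No AP-1-like forms other than these were searched, so the shares do not test whether a match is unusual. These are matches of letters only.

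Total counts ranged from 12249470 to 29596987 per library. Levels are CPM, read counts relative to library size with TMM factors, and differences are log2 fold changes from edgeR's quasi-likelihood test with Benjamini-Hochberg adjustment over all 14775 genes. Intervals are 95% intervals, the estimate ± 1.96 SE. In these slices fewer cells of a type and less RNA per cell cannot be told apart. Quality measures differed between groups, and ligated vehicle libraries overlapped neither SB525334 nor sham libraries in the 3 given here. The mitochondrial share of alignments was 2.19% to 4.49% in SB525334 libraries, 1.33% to 1.54% in ligated vehicle libraries and 2.02% to 2.46% in sham libraries. The non-uniquely mapped share was 9.85% to 20.85% with SB525334, 8.10% to 8.89% in ligated vehicle libraries and 10.17% to 12.66% in sham libraries. The intronic share was 25.98% to 33.11% with SB525334, 33.74% to 36.76% in ligated vehicle libraries and 24.36% to 31.06% in sham libraries. The part of these measures in the results was not tested other than by fits with a quality covariate, the first principal component of the deposited metrics. Scaling by total counts in place of TMM moved the median log2 fold change of all genes from -0.05 to 0.30 for ligation and from 0.04 to -0.38 for SB525334 against vehicle.

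The effect of ligation was read from vehicle slices of ligated rats against those of sham rats. All 5 genes were higher after ligation, from 4.19-fold for Mmp9 to 103-fold for Lox, and in all 5 the lowest ligated library lay above the highest sham library. Among all genes tested, 40.0% were called higher and 27.5% were higher without overlap. The median log2 fold change was 4.298 for the 5 genes and -0.05 for all genes.

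Timp1, the protease inhibitor, had a lowest, median and highest level of 396, 424 and 515 CPM in ligated slices, against 14.1, 21.1 and 33.5 CPM in sham slices. The lowest ligated library was far above the highest sham library. The log2 fold change was 4.298 (SE 0.15, adjusted p in edgeR = 4.78e-29), and 5.37% of genes tested had a higher one.

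Of the gelatinases, Mmp2 rose far more than Mmp9. Mmp2 lay at 1094.5, 1232 and 1432.5 CPM (lowest, median and highest) in ligated slices, against 8.53, 18.8 and 28.2 CPM in sham slices. Its log2 fold change was 6.13 (SE 0.15, adjusted p in edgeR = 4.39e-36), a 70.1-fold difference, and 1.20% of genes had a higher one. Mmp9 was measurable in every sham library, with 324 to 495 reads. It lay at 80.2, 127 and 161 CPM in ligated slices, against 23.97, 28.5 and 44.1 CPM in sham slices. Ligated library 3 was the lowest and stood apart from the other 9, which were at 104.6 CPM or more. The log2 fold change of Mmp9 was 2.07 (SE 0.20, adjusted p in edgeR = 9.51e-13), and 16.7% of genes had a higher one.

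Lox, the crosslinking enzyme, was the gene with the largest relative change of the 5. It lay at 195, 214 and 272 CPM in ligated slices, against 1.16, 1.61 and 4.49 CPM in sham slices. The sham libraries held 17 to 57 reads of Lox each, so that sham levels are set by few reads and their coefficient of variation was 51.9%. The log2 fold change was 6.69 (SE 0.19, adjusted p in edgeR = 7.82e-33), and 90 was its rank from the highest among all genes.

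Fn1, the scaffold glycoprotein, lay at 4106, 5055 and 6569 CPM in ligated slices, against 163, 259.9 and 594 CPM in sham slices. Sham libraries 2, 4 and 9 were the highest of their group, at 479, 594 and 395 CPM, and none came near the ligated range. The log2 fold change was 3.998 (SE 0.19, adjusted p in edgeR = 5.64e-24).

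**Figure D1:**
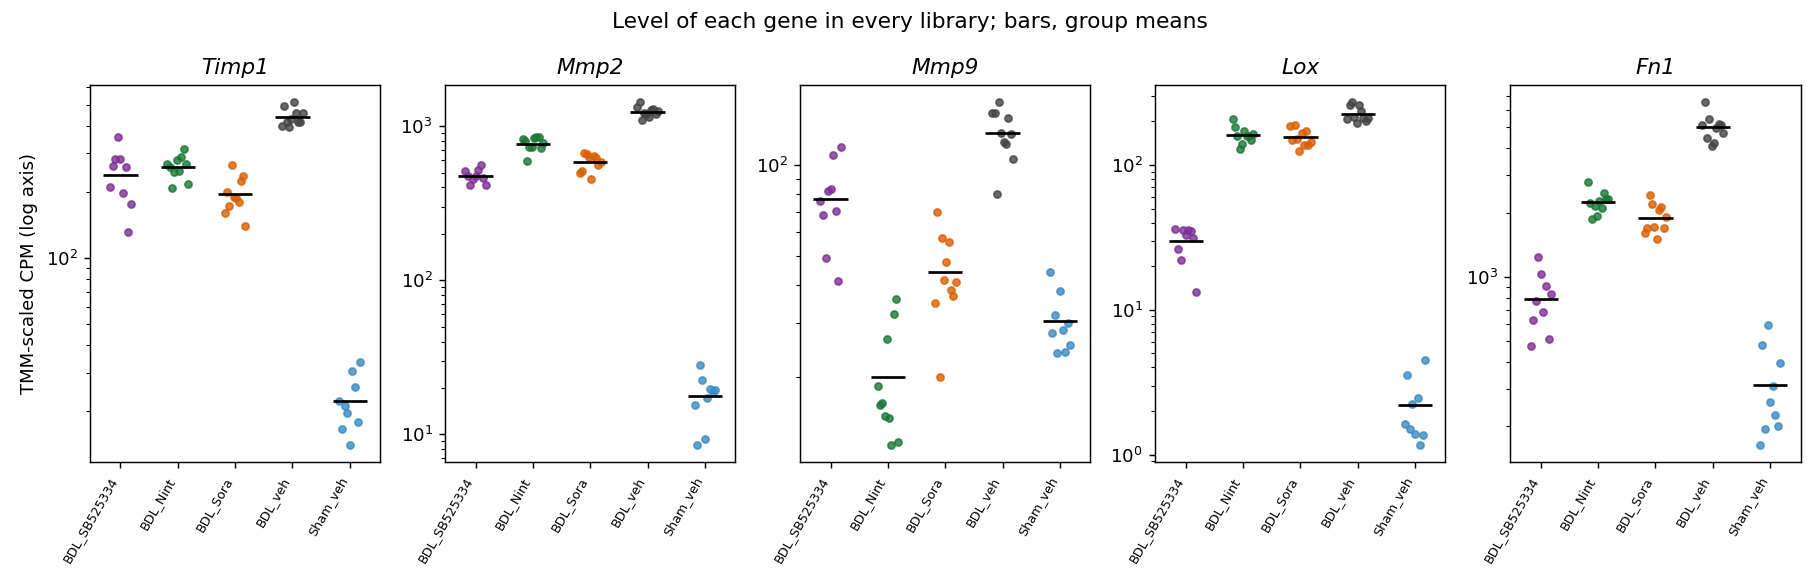
TMM-scaled CPM (log axis) of Timp1, Mmp2, Mmp9, Lox and Fn1 in every library of the 5 groups, with 1 point per library and a bar at the arithmetic mean (n = 9 for BDL_SB525334 and Sham_veh, n = 10 for the others). Ligated vehicle libraries are above all sham libraries in the 5 panels, and Mmp9 with Nint (mean 19.9 CPM) lies lower than in sham slices (30.5 CPM).

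The effect of each compound was read against vehicle in ligated slices, and the 3 comparisons share the same 10 vehicle libraries. All 5 genes were lower with each compound, and the sizes differed by gene. Lox fell 7.60-fold and Fn1 6.36-fold with SB525334, Mmp9 fell 6.39-fold with Nint, and Mmp9 fell 2.87-fold and Fn1 2.65-fold with Sora. The order of Lox and Fn1 with SB525334 turned round with the quality covariate (log2 fold changes of -2.72 for Lox and -3.17 for Fn1). The order of Mmp9 and Fn1 with Sora turned round with that covariate (-1.49 for Mmp9 and -1.50 for Fn1) and without Sora library 3 (-1.44 for Mmp9 and -1.45 for Fn1). Among all genes tested, 34.8% were called lower with SB525334, 10.9% with Nint and 13.0% with Sora. Groups did not overlap for 4 of the 5 genes with SB525334 and with Nint and for 5 of 5 with Sora, and over all genes 16.0%, 4.35% and 4.64% were lower without overlap.

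With SB525334 the crosslinker and the scaffold fell most. Lox lay at 13.2, 33.0 and 36.1 CPM (lowest, median and highest) in SB525334 slices, beside the vehicle values of 195, 214 and 272 CPM. SB525334 library 9 was the lowest, followed by libraries 3 and 2 at 21.96 and 26.5 CPM, and the highest SB525334 library was still far below the lowest vehicle library. The log2 fold change of Lox was -2.93 (SE 0.15, adjusted p in edgeR = 4.98e-22), and 178 was its rank from the lowest among all genes. Fn1 lay at 476, 774 and 1235.5 CPM in SB525334 slices, with libraries 1, 8 and 2 lowest and library 4 highest, against 4106 CPM in the lowest vehicle library. Its log2 fold change was -2.67 (SE 0.18, adjusted p in edgeR = 8.01e-18), a 6.36-fold difference.

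The proteases and the inhibitor fell less with SB525334. Mmp2 lay at 413, 472 and 557 CPM, all below the vehicle range of 1094.5 to 1432.5 CPM, and fell by a log2 value of 1.39 (SE 0.12, adjusted p in edgeR = 9.37e-15). Timp1 lay at 131, 261 and 355 CPM, with library 8 lowest and library 4 highest, against at least 396 CPM in vehicle slices. It fell by 0.87 (SE 0.13, adjusted p in edgeR = 1.03e-07). Mmp9 lay at 41.3, 75.7 and 114.8 CPM, and 5 of 9 libraries were below all vehicle libraries. It fell by 0.73 (SE 0.19, adjusted p in edgeR = 0.000895). With a quality component as a covariate the difference was -0.53 with a wider SE of 0.34 and was no longer called (adjusted p in edgeR = 0.194). Quality and group cannot be fully told apart in that fit, since the quality measures given above did not overlap between these groups. With total counts the Mmp9 difference was -1.14. The other 4 genes were still called with that covariate, Lox at -2.72, Fn1 at -3.17, Mmp2 at -1.41 and Timp1 at -1.05. SB525334 libraries 1, 6 and 8 had the lowest non-uniquely mapped shares of their group, at 9.85% to 11.27%, against 13.42% or more in the other 6. In those 3 libraries Fn1 was at 476 to 685 CPM and Timp1 at 131 to 212 CPM, against 629.9 to 1235.5 CPM and 177 to 355 CPM in the other 6. Lox and Mmp2 averaged higher in those 3 libraries, at 34.4 and 498 CPM, against 27.6 and 464 CPM in the other 6, and Mmp9 averaged 74.9 CPM against 77.9 CPM. The ranges of the 3 and the 6 libraries overlapped for each of the 5 genes.

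With Nint, Mmp9 changed most of the 5 genes, under every alternative run and without each library in turn. It lay at 11.9, 16.2 and 36.0 CPM in Nint slices, against 80.2, 127 and 161 CPM in vehicle slices. Nint libraries 5, 8 and 9, at 26.7, 32.2 and 36.0 CPM, were above the other 7, which were at or under 18.7 CPM. The log2 fold change was -2.68 (SE 0.20, adjusted p in edgeR = 3.5e-14), and 24 was its rank from the lowest among the 14775 genes. Fn1 fell by 1.16 (SE 0.16, adjusted p in edgeR = 3.36e-07), to a range of 1865 to 2783 CPM. Timp1 fell by 0.76 (SE 0.13, adjusted p in edgeR = 7.87e-06), to a range of 209 to 314 CPM. Mmp2 fell by 0.69 (SE 0.11, adjusted p in edgeR = 3.39e-06), to a range of 595 to 853 CPM, in which library 3 was the lowest. Lox fell least, by 0.48 (SE 0.13, adjusted p in edgeR = 0.00456). Its range of 129 to 209 CPM overlapped the vehicle range through library 1, at 209 CPM.

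With Sora the 4 genes other than Lox fell by more than 2-fold. Mmp9 lay at 19.9, 41.3 and 69.9 CPM, all below the vehicle range, and fell by 1.52 (SE 0.19, adjusted p in edgeR = 2.48e-08). Fn1 fell by 1.41 (SE 0.17, adjusted p in edgeR = 4.83e-09), to a range of 1500.5 to 2424.5 CPM. Timp1 lay at 141, 189 and 264 CPM and fell by 1.17 (SE 0.13, adjusted p in edgeR = 9.09e-10). Mmp2 lay at 452, 604 and 667 CPM and fell by 1.09 (SE 0.11, adjusted p in edgeR = 1.15e-10). Lox fell least again, by 0.54 (SE 0.13, adjusted p in edgeR = 0.00132), to a range of 124.5 to 188 CPM. The highest Sora library was just under the lowest vehicle library, at 195 CPM.

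The calls of the 5 genes for ligation and for each compound against vehicle kept their direction with TMM, RLE, DESeq2 size factors and total counts. RLE and DESeq2 are not separate checks of scaling, with nearly equal all-gene median log2 fold changes (0.0499 and 0.0503 for ligation). The calls also kept their direction within each position column of the libraries' codes that held both groups, 3 or 4 columns per comparison. For example, Lox with SB525334 differed by -2.91 to -2.73 within 3 columns, and Mmp9 with Nint by -3.39 to -2.45 within 3 columns. These are differences of mean log2 CPM.

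**Figure D2:**
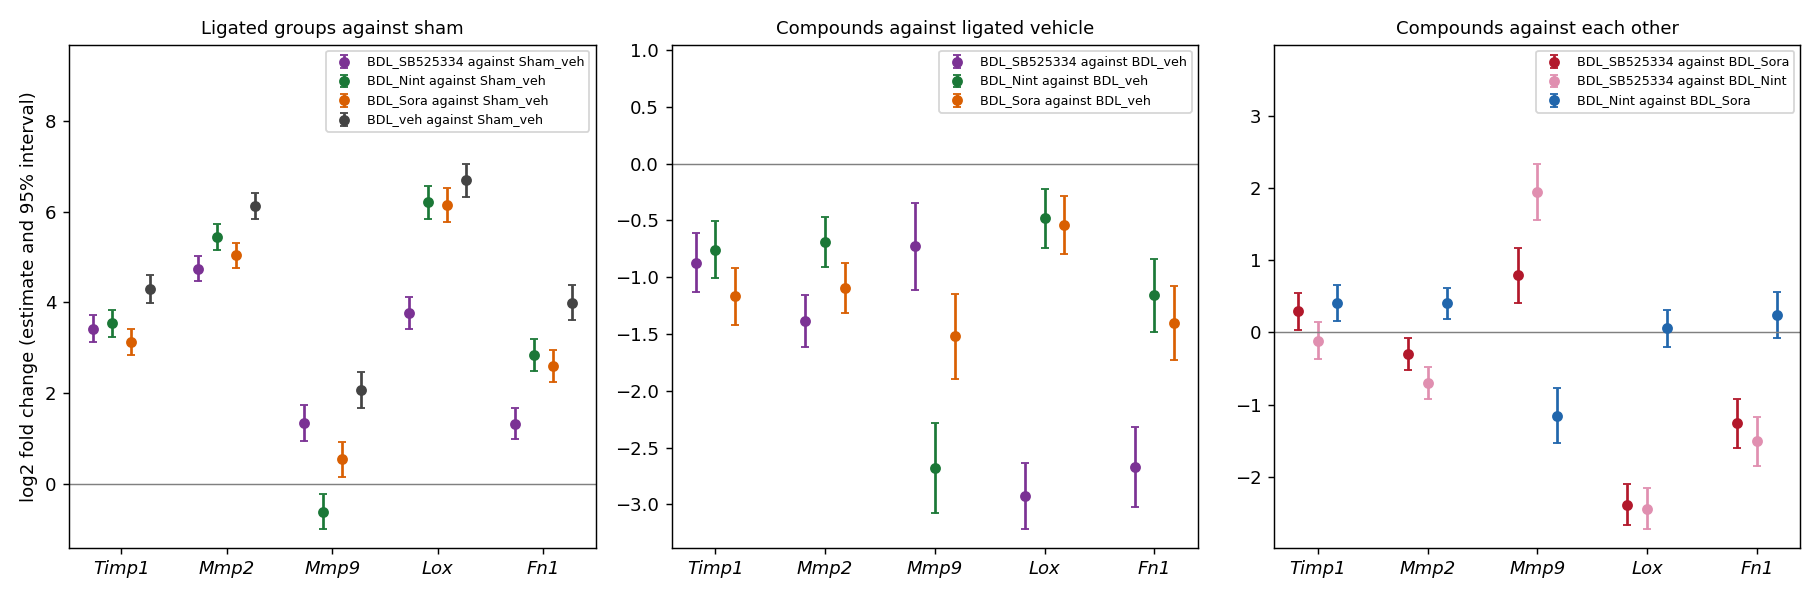
Log2 fold change of each gene (estimate and 95% interval) for the ligated groups against sham, for the compounds against ligated vehicle and for the compounds against each other; 0 is marked by a grey line. All 15 values against vehicle are below 0, and in the right panel Lox is near -2.4 for SB525334 against either other compound and near 0 for Nint against Sora.

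The 3 compounds were compared directly in 3 pairs, over 5 genes each, with p-values adjusted over all genes of the pair. The compounds are not close structural analogues, and no doses are given, so the pairs are compared as the labels set them. SB525334 gave lower Lox and Fn1 than either other compound and higher Mmp9 than either. Nint gave lower Mmp9 than Sora. Log2 differences of Timp1 between compounds were at most 0.41 in size.

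SB525334 and Sora differed in 5 of 5 genes, 2 higher and 3 lower with SB525334, where 36.1% of all genes were called higher and 36.3% lower. Lox was lower with SB525334 by a log2 fold change of -2.39 (SE 0.15, adjusted p in edgeR = 4.93e-19), with no overlap. Fn1 was lower by -1.26 (SE 0.17, adjusted p in edgeR = 9.26e-09), also with no overlap, where 14.1% of all genes were lower without overlap. Mmp9 was higher with SB525334 by 0.79 (SE 0.19, adjusted p in edgeR = 0.000352), and 6 of 9 SB525334 libraries were above all Sora libraries. Mmp2 was lower by -0.29 (SE 0.11, adjusted p in edgeR = 0.0195), with overlap. With the quality covariate Mmp2 was not called, at a similar difference and a wider SE (-0.31, SE 0.18, adjusted p in edgeR = 0.144). With total counts it was -0.65. The Mmp9 difference was 0.43 with total counts (adjusted p = 0.0453). For Timp1 the difference of 0.29 (SE 0.13, adjusted p in edgeR = 0.0404) rested on the settings. It was lost in 11 of the 19 fits that left out a library, with adjusted p of 0.0524 to 0.145 in these. Of 12 other alternatives it was kept in 3, limma-voom, position column and the fit without SB525334 libraries 1, 6 and 8 (0.47). It was -0.08 with total counts (adjusted p = 0.571).

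SB525334 and Nint differed in 4 of 5 genes, 1 higher and 3 lower with SB525334, where 36.4% of all genes were called higher and 36.3% lower. Mmp9 was higher with SB525334 by 1.95 (SE 0.20, adjusted p in edgeR = 8.99e-12), its lowest SB525334 library, at 41.3 CPM, lying above the highest Nint library, at 36.0 CPM. Lox was lower by -2.44 (SE 0.15, adjusted p in edgeR = 2.06e-19), Fn1 by -1.51 (SE 0.17, adjusted p in edgeR = 1.18e-10) and Mmp2 by -0.697 (SE 0.11, adjusted p in edgeR = 5.8e-07), each with no overlap. Over all genes 17.8% were higher and 14.6% lower without overlap. The Mmp2 difference was -1.08 with total counts. Timp1 was at 240.3 ± 67.2 CPM with SB525334 (SD, n = 9) and 260.1 ± 31.5 CPM with Nint (n = 10). The difference of -0.11 was not called (adjusted p in edgeR = 0.436), with an interval of -0.37 to 0.14. It was 0.06 without SB525334 libraries 1, 6 and 8 (adjusted p = 0.701), and -0.52 and called with total counts (adjusted p = 0.000358).

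Nint and Sora differed in Mmp9 and Mmp2, where 1.37% of all genes were called higher with Nint and 0.948% lower. Neither was free of overlap, and 0.393% of all genes were. Mmp9 was lower with Nint by -1.16 (SE 0.20, adjusted p in edgeR = 0.000415). It averaged 19.9 ± 8.59 CPM with Nint and 44.4 ± 13.99 CPM with Sora (SD, n = 10 each), and 7 of 10 Nint libraries were below all Sora libraries. In this direct comparison 34 was its rank from the lowest among all genes. Mmp2 was higher with Nint by 0.40 (SE 0.11, adjusted p in edgeR = 0.0363), and 9 of 10 Nint libraries were above all Sora libraries. That call was lost in 12 of the 20 fits that left out a library, with adjusted p of 0.0519 to 0.0889 in these. Timp1 was not called at 0.41 (adjusted p in edgeR = 0.0731, interval 0.16 to 0.66) and was called with DESeq2, total counts, limma-voom and a fit of both groups alone. Lox, at 0.06, and Fn1, at 0.25, were not called (adjusted p in edgeR = 0.888 and 0.493), with intervals of -0.20 to 0.31 and -0.07 to 0.57.

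Compound-treated ligated slices were then set against sham slices, to show how far each gene still stood from its level without ligation. Mmp2, Lox and Timp1 stayed above sham without overlap with every compound. Fn1 and Mmp9 came nearest to sham. Among all genes 42.9% were called higher with SB525334, 40.0% with Nint and 40.1% with Sora against sham, and 23.6%, 26.8% and 26.3% were higher without overlap.

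Lox with SB525334 was still 13.6-fold above sham (log2 fold change 3.76, SE 0.18, adjusted p in edgeR = 1.07e-23), against 73.8-fold with Nint and 70.96-fold with Sora. Mmp2 was 26.8-fold above sham with SB525334, 43.4-fold with Nint and 32.8-fold with Sora. Timp1 was 10.7-fold above sham with SB525334, 11.6-fold with Nint and 8.75-fold with Sora. The edgeR adjusted p of these 9 values was at most 2.33e-24 for Timp1, 1.86e-32 for Mmp2 and 1.07e-23 for Lox.

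Fn1 with SB525334 was 2.51-fold above sham (log2 fold change 1.33, SE 0.17, adjusted p in edgeR = 2.59e-09). SB525334 libraries 1 and 8, at 476 and 510.0 CPM, lay within the sham range, whose highest library held 594 CPM. With Nint and Sora Fn1 was 7.15-fold and 6.02-fold above sham, with no overlap. Mmp9 with SB525334 was 2.53-fold above sham (log2 fold change 1.34, SE 0.20, adjusted p in edgeR = 9.51e-08), with 8 of 9 libraries above all sham libraries.

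Mmp9 was the only gene of the 5 to lie below sham with any compound. With Nint it was lower than in sham slices by a log2 fold change of -0.61 (SE 0.20, adjusted p in edgeR = 0.00522), and 7 of 10 Nint libraries were below all sham libraries. Among all genes 40.9% were called lower with Nint than in sham. The call was lost with total counts, at -0.29 (adjusted p = 0.195). With Sora Mmp9 was above sham by 0.54 (SE 0.20, adjusted p in edgeR = 0.0113), with overlap, and with the quality covariate it was not called (0.37, SE 0.32, adjusted p in edgeR = 0.294). With total counts that difference was 0.85.

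The order of the levels differed between the genes. From lowest to highest mean, Lox stood in the order sham, SB525334, Sora, Nint, vehicle, and Sora and Nint, at 156 ± 21.6 and 162 ± 22.6 CPM, did not differ beyond their spread. Fn1 had the same order, and Sora and Nint, at 1887 ± 296 and 2239.7 ± 265 CPM, were again not called. Mmp2 also stood in the order sham, SB525334, Sora, Nint, vehicle. SB525334 and Sora were neighbours at 475 ± 47.9 and 582 ± 73.6 CPM. Timp1 stood in the order sham, Sora, SB525334, Nint, vehicle, with SB525334 and Nint not called apart. For Mmp9 the order was Nint, sham, Sora, SB525334, vehicle, at 19.9, 30.5, 44.4, 76.9 and 127 CPM.

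Ratios between genes within a library do not depend on how libraries are scaled, and they are given as log2 ratios of counts, with no test. A ratio is compared only between groups, since counts of different genes also reflect transcript length. The ratio of Timp1 to Mmp2 was -1.50 ± 0.16 in ligated vehicle slices (SD, n = 10) and 0.38 ± 0.49 in sham slices (n = 9), without overlap. Mmp2 counts rose 3.66-fold more than those of the inhibitor. With Nint and Sora the ratio stayed at -1.57 ± 0.15 and -1.58 ± 0.30, overlapping vehicle. With SB525334 it was -1.03 ± 0.45, with a range of -1.81 to -0.35 that overlapped vehicle. SB525334 libraries 1, 6 and 8 were the lowest, at -1.27, -1.39 and -1.81, just under library 9 at -1.24. Libraries 2, 3, 4, 5 and 7, at -1.09 or more, were above the highest vehicle library, at -1.15.

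The ratio of Timp1 to Mmp9 went the other way with ligation. It was 1.81 ± 0.34 in ligated vehicle slices and -0.47 ± 0.59 in sham slices, without overlap, a 4.85-fold difference. With Nint it was 3.80 ± 0.50, and the lowest Nint library, at 2.89, was above the highest vehicle library, at 2.38. With Sora it was 2.19 ± 0.49 and with SB525334 1.66 ± 0.59, both overlapping vehicle. The inhibitor's counts relative to Mmp9 were therefore 3.98-fold higher with Nint than with vehicle.

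The ratio of Lox to Fn1 was -4.46 ± 0.25 in ligated vehicle slices and -7.15 ± 0.49 in sham slices. With Sora it was -3.59 ± 0.27, above all vehicle libraries, and with Nint it was -3.79 ± 0.16, with overlap. Fibronectin counts thus fell more than those of the crosslinking enzyme with both compounds. With SB525334 the ratio was -4.72 ± 0.68, with a range of -5.97 to -3.72 that held the whole vehicle range of -4.69 to -4.03. SB525334 libraries 1, 6 and 8 were the highest, at -3.72, -4.26 and -4.02. The remaining SB525334 libraries were at -5.97 to -4.57, and of these only library 2, at -4.57, lay within the vehicle range.

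**Figure D3:**
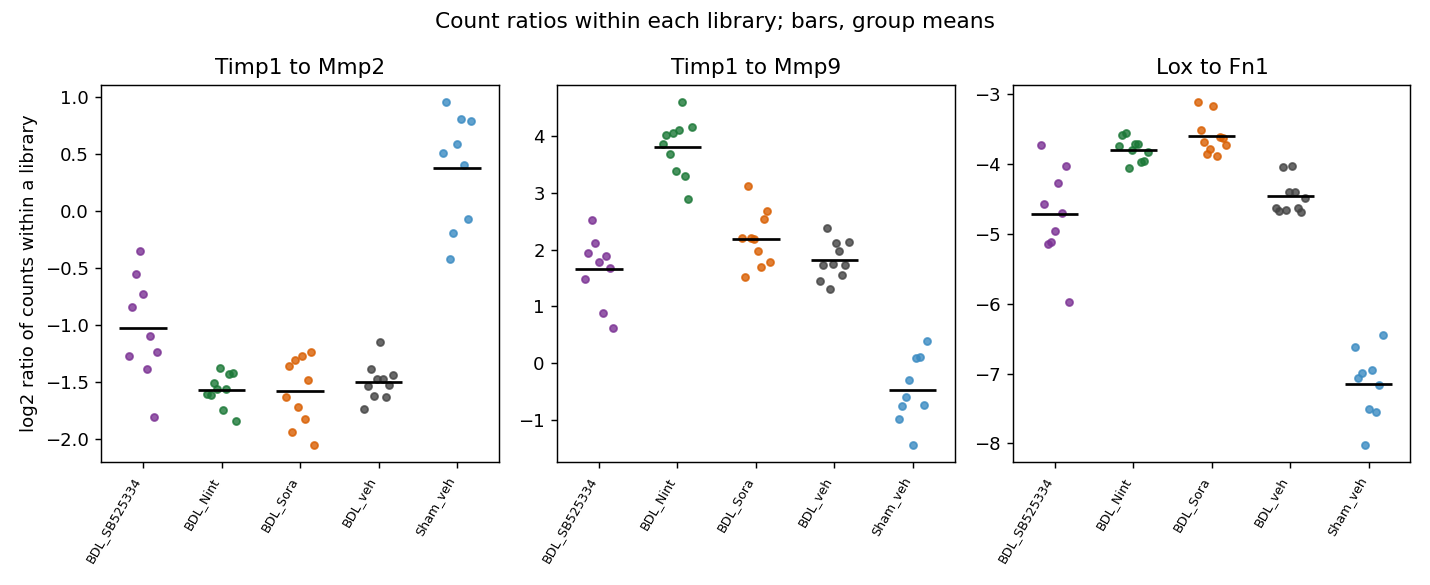
Log2 ratio of counts within each library for Timp1 to Mmp2, Timp1 to Mmp9 and Lox to Fn1, with 1 point per library and a bar at the group mean (0.5 added to each count). Nint libraries stand above the vehicle libraries in the middle panel (means 3.80 and 1.81), and SB525334 libraries are the most spread of the ligated groups in the right panel (SD 0.68).

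Likeness of pattern was measured as the root mean square difference between the 5 group means of log2 CPM, each centred on the gene's own mean. The values were not scaled for the size of change. The distance therefore reflects size as well as pattern, and a gene that changes little can lie close. The closest pair among the 5 genes was Timp1 and Fn1, at 0.71, followed by Mmp2 and Lox, at 0.74. These pairs were alike in the log2 fold change of ligation, Timp1 and Fn1 at 4.298 and 3.998, Mmp2 and Lox at 6.13 and 6.69. They were less alike with SB525334 against vehicle, Timp1 and Fn1 at -0.87 and -2.67, Mmp2 and Lox at -1.39 and -2.93. Mmp9 was farthest from the others, 1.36 from its nearest, Timp1. Of the 14775 genes tested, 12471 were closer to Mmp9 than Timp1 was, a count that can include genes with little change. For the others, 1191 were closer to Timp1 than Fn1 was, and 767 were closer to Fn1 than Timp1 was. Closer to Mmp2 than Lox were 356, and closer to Lox than Mmp2 were 118. The gene closest to Timp1 was ENSRNOG00000014395, at 0.13. It averaged 7.61 CPM with SB525334, 6.72 with Nint, 5.38 with Sora, 13.5 with vehicle and 0.633 in sham slices. The gene closest to Lox was ENSRNOG00000005094, at 0.18, which averaged 3.66, 23.6, 18.1, 35.96 and 0.197 CPM in the same groups. The files do not pair these IDs with names. Some of these likenesses changed when SB525334 libraries 1, 6 and 8 were left out, the only libraries left out for this measure. Without them another gene was closest to Timp1, Mmp2, Mmp9 and Fn1, and only the closest to Lox stayed the same. Timp1 and Fn1 were then still the closest pair, at 0.697, but Mmp2 was nearest to Timp1, at 0.75, and nearer to it than to Lox, at 0.78. Mmp9 was then nearest to Fn1, at 1.34.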

How the data were processed

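RNA was sequenced from liver slices in 48 libraries, and samples were grouped by their titles. The authors deposited expected counts per gene, and the submitters' processing notes name RSEM, edgeR (no versions) and the build Rnor_6.0. No source used here gives the aligner, the annotation or any filter. Of all values 8.02% were not whole at a tolerance of 1e-06 and were rounded, while every value of the 5 genes was whole. The authors also deposited log2 CPM for protein-coding genes and a table of quality metrics on mixed scales, whose rates were turned into percent here. Per the deposited quality metrics 98.73% to 99.22% of read pairs lay antisense, so the libraries keep strand. Whether counting used it is not stated.

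Low genes were removed with filterByExpr by group, and TMM gave the scaling. In edgeR 4.0.16 (R 4.3.3) the robust quasi-likelihood test was fitted to all 48 libraries with 1 coefficient per group, two-sided, and a gene was called at an adjusted p under 0.05, in 10 comparisons. SEs were derived from the F statistic. The test was checked on simulated data. Log2 CPM used a prior count of 2. Alternatives were RLE factors, total counts, DESeq2 1.42.0, no filter, 5 CPM in at least 9 libraries, fits of 2 groups, limma-voom and limma on the authors' values (limma 3.58.1), replicate block, position column, the first component of 151 quality metrics (35.7% of their variance), and fits without SB525334 libraries 1, 6 and 8, without vehicle libraries 3 and 6 and without each library in turn. Replicates of each group differed beyond sampling noise (lowest chi-square per degree of freedom 3.94 over 207 pairs, genes with at least 20 counts).

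The 5 genes, the lists and the libraries left out were chosen with earlier results of these data known. All 5 genes were named in every comparison. The reference table (47357 genes, GRCr8) holds 0 Ensembl IDs, so the lists of further matrix genes and of cell type markers could not be matched, and the tissue was not checked against markers here.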

Additional observations from a re-analysis of the deposited data

Results flagged for a closer look

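Of 40 sets of values tested (the CPM of each gene and the 3 ratios, in each of the 5 groups), 1 held a library far from the rest. Mmp2 stood at 595 CPM in Nint library 3, whose gap to the next lowest was 0.476 of the group's whole range. Chance alone flags about 1 in 20 such sets. In the same library Timp1 (209 CPM) and Fn1 (1865 CPM) were also the lowest of the Nint group. Without any 1 Nint or vehicle library the log2 fold change of Mmp2 for Nint against vehicle stayed between -0.71 and -0.65.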

How the results depend on the processing

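For ligation, and for Sora and Nint against vehicle, the 5 genes were called in the same direction under every alternative run and without each library in turn. With SB525334 against vehicle Mmp9 was no longer called with the quality covariate (-0.53, SE 0.34), and no other call of that comparison was lost. Against sham the Mmp9 call was lost for Nint with total counts (-0.29) and for Sora with the quality covariate (0.37, SE 0.32). SB525334 against Sora had 3 called genes with the quality covariate, against 5. Over all 14775 genes 4132 were called higher and 3903 lower for this pair with that covariate, against 5328 and 5363 without it. Timp1 for the pair was -0.081 with total counts. The Timp1 call for that pair was lost with RLE factors, DESeq2, no filter, the filter at 5 CPM, the fit of both groups alone, the authors' log2 CPM and the replicate block (adjusted p of 0.0618 to 0.0969) and with the quality covariate (0.558). Timp1 for SB525334 against Nint was 0.057 without SB525334 libraries 1, 6 and 8. Nint against Sora had 2 called genes, and 1 with no filter, with the authors' log2 CPM, with the replicate block or with position column. There were 3 with DESeq2, total counts or the fit of both groups alone, and 4 with limma-voom. Without each library in turn there were 1 to 3. Over all 14775 genes 203 were called higher and 140 lower in the main fit, against 1940 and 1755 with limma-voom. With no filter 149 and 107 of 23036 genes were called, and 944 and 661 of 14184 in the fit of both groups alone. The Timp1 call (SB525334 against Sora) was lost without Sora library 1, 3, 5, 6, 7 or 10 or SB525334 library 2, 3, 4, 5 or 7. The Mmp2 call (Nint against Sora) was lost without Sora library 1, 2, 5, 6, 9 or 10 or Nint library 1, 2, 6, 7, 8 or 10, with log2 fold changes of 0.37 to 0.44 over all 20 such fits. The cause was not tested. With total counts the mean level of Timp1 in BDL_veh was 492.5 CPM, and that of Mmp2 was 399 CPM in BDL_SB525334 and 1392 CPM in BDL_veh. Libraries shared replicate numbers, but those of the same number did not deviate together (median correlation 0.01 over 93 pairs, and 6 of 48 libraries matched best with their own number). The replicate block gave 4 called genes for SB525334 against Sora, where 5261 of all genes were called higher and 5344 lower. The loss there was Timp1 (0.28, edgeR adjusted p = 0.0694). The block changed how many of the 5 genes were called only in this pair and in Nint against Sora. Lox in sham slices, with 17 to 57 reads, is the value most limited by depth.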
